A study of Saccharomyces cerevisiae with 6 samples.

Results

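Budding yeast (Saccharomyces cerevisiae) cells without Dal80 were set against cells without Gat1, both grown in medium containing glutamine, in the 4 of 6 strand-specific total RNA libraries that come from this medium. The groups were dal80Δ cells in glutamine, with 2 biological replicates, and gat1Δ cells in glutamine, with 2. The remaining 2 libraries, gat1Δ cells in medium containing proline, entered the estimate of spread and are quoted only as values beside the glutamine ones. All 5795 features of type gene among 6192 were taken. A minimum of 10 scaled reads, met in 2 or more libraries, left 5594 of them for the test and 201 outside it. Wild-type cells and dal80Δ cells in proline were not analysed here. The 2 deletions, the mating type described first below and any other difference between the strains therefore cannot be told apart, and a gene called higher in dal80Δ may as well be read as lower in gat1Δ.

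Gat1 and Dal80 belong to the GATA family of zinc-finger transcription factors, which bind GATA sequences before genes for the uptake and breakdown of poor nitrogen sources. Gat1 activates such genes, while Dal80 represses many of them and is itself made mostly when nitrogen is poor. In good nitrogen such as glutamine the activators Gln3 and Gat1 are largely held in the cytoplasm, a state called nitrogen catabolite repression. Haploid yeast has the mating types a and α, set by the MAT locus: α cells express α-specific genes and shut off a-specific ones, and a cells do the reverse.

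Values are scaled reads, the deposited read counts that the authors had rescaled so that the sum over genes is almost equal between libraries. Fold changes are log2 differences of read density after a small constant was added, dal80Δ over gat1Δ, with standard errors (SE). The 4 libraries held between 17480765 and 34718641 reads, of which genes took 73.8% to 78.1%. GAT1 (YFL021W), on the plus strand of chromosome 6 at 95966 to 97498 in build R64, had 4 reads in the gat1Δ pair and 2665 in the dal80Δ pair. The ratio was 473, with exact 95% Poisson limits of 185 and 1738. DAL80 had 3 reads in gat1Δ and 1 in dal80Δ (ratio 0.237, 0.00451 to 2.95), so in glutamine its reads did not separate the strains. Such intervals cover counting error only. By limma's moderated test with Benjamini-Hochberg adjustment at 0.05, 305 genes were called, which is 5.45% of those tested, with 222 higher in dal80Δ (3.97%) and 83 lower (1.48%). These counts rested on single libraries: without dal80Δ replicate 1 they were 111 in all, 93 higher and 18 lower, without dal80Δ replicate 2 119, 94 and 25, without gat1Δ glutamine replicate 1 216, 187 and 29, and without its replicate 2 178, 112 and 66. The libraries of the groups did not overlap for 63.9% of the tested genes, 17.4% with dal80Δ higher and 46.4% with dal80Δ lower. The P-values measure the spread between libraries labelled as biological replicates. In bulk cultures, more cells with a transcript and more of it per cell cannot be told apart. The median gene lay at a log2 of -0.15, so small differences depend on the scaling: with TMM factors the median was -0.01 and 396 genes were called, 87.4% of them higher in place of 72.8%. Mating genes were counted apart. They made up 70 of the genes tested and 19 of those called, which left 286 called among 5524, 214 higher and 72 lower.

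**Figure D1:**
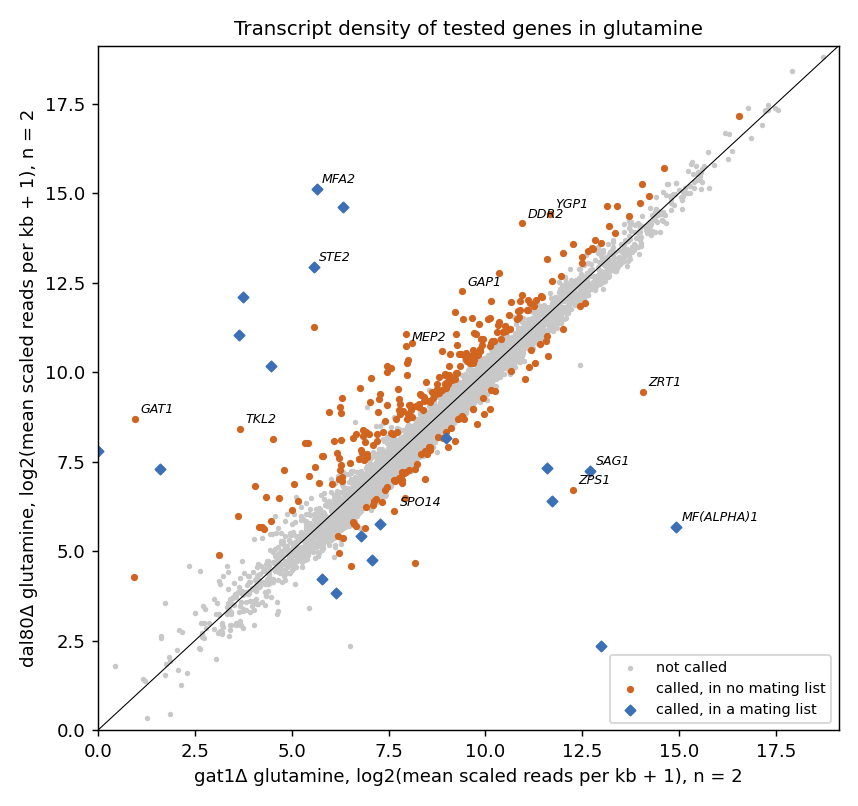
Mean scaled reads per kilobase of each of the 5594 tested genes in gat1Δ (x axis) and dal80Δ (y axis) cells in glutamine, on a log2 scale after adding 1, with n = 2 libraries a group and colours for genes called in a mating list or outside one. Most genes lie along the diagonal; the genes of the mating lists hold the points farthest from it on both sides.

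Genes of mating type held the largest differences between the strains. The 7 a-specific genes each passed as higher in dal80Δ and the 5 α-specific genes each as lower. The a-factor precursor gene MFA1 had 8.76 and 8.90 scaled reads in the gat1Δ libraries and 2620 and 2940 in dal80Δ (log2 7.93 ± 0.14, adjusted p = 5.66e-09). The second a-factor gene, MFA2, had 7 and 4.45 against 4407 and 3952 (8.97 ± 0.17). Both dal80Δ libraries were high and both gat1Δ libraries near zero for these pheromone genes. BAR1, for the protease with which a cells degrade α-factor, had 21.9 and 18.9 against 3935 and 3514 (5.95 ± 0.14). STE6, the exporter of a-factor, had 94.6 and 69.5 against 4659 and 4243 (4.74 ± 0.16). AGA2, the adhesion subunit of the a-agglutinin, had 4.38 and 2.23 against 1102 and 1207 (6.96 ± 0.26), and no a-specific gene had overlapping groups. The smallest log2 value was that of ASG7, which acts on pheromone signalling after mating, with 0.875 and 1.67 scaled reads against 94.8 and 101 (2.84 ± 0.19). Its gat1Δ reads were so few that the added constant lowered this log2, so ASG7 cannot be ranked by it.

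The promoters of the a-factor genes are shown because the α2 repressor of α cells is known to act on a-specific genes through such sites. The 300 bases before the start codon were read from the R64 genome, MFA1 at chr4:1384876-1385175 and MFA2 at chr14:352114-352413, both on the plus strand. Capitals mark CATGTAA or its reverse complement, letters chosen after the data were seen and written here as TTACATG.
MFA1: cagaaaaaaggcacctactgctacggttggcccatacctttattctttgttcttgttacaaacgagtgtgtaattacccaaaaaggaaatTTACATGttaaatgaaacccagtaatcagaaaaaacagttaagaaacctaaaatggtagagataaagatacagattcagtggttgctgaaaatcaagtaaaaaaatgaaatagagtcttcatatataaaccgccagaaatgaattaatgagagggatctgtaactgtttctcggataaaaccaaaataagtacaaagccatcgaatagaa
MFA2: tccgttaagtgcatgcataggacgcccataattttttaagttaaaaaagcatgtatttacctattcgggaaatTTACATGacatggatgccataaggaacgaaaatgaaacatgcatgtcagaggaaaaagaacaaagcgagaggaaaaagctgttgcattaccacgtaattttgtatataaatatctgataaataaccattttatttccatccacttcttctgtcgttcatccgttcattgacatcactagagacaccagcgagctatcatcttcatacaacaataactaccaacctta
These letters were found on either strand in all 7 a-specific promoters and in 222 of 5571 tested promoters (3.98%). The pheromone response letters TGAAACA were found in 5 of the 7 and in 7.07% of tested promoters. A match describes the letters and is no evidence of binding.

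The α-specific genes had the opposite pattern. MF(ALPHA)2, the minor α-factor gene, had 2904 and 2971 scaled reads in gat1Δ and 0.886 and 2.12 in dal80Δ (-8.23 ± 0.28, adjusted p = 3.19e-07). STE3, the receptor for a-factor, had 4553 and 4930 against 100 and 137 (-4.99 ± 0.18). Both were near their floor or far lower in each dal80Δ library. SAG1, for the α-agglutinin, had 12020 and 14011 against 326 and 265 (-5.26 ± 0.22), and YLR040C, for a predicted cell wall protein, 2079 and 2113 against 113 and 100 (-4.12 ± 0.14). The transcripts thus had the a pattern in both dal80Δ libraries and the α pattern in both gat1Δ libraries, which the labels do not state.

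At the mating-type loci, HMRA1, the silent copy of the a1 gene whose reads cannot be told from those of the active copy, had 100 and 116 scaled reads in dal80Δ and 0 in both gat1Δ libraries. Against a floor of 3 reads per library it was at least 50.4-fold higher. HMLALPHA1, of the silent α cassette, had 64.8 and 77.3 against 15.5 and 11.7 (-1.69 ± 0.15), and HMLALPHA2 (-0.94), MATALPHA1 (-1.20) and MATALPHA2 (-1.32) were also lower in dal80Δ. The cassettes share near-identical sequence, which makes the division of reads between them uncertain, and MATALPHA2 shares 4 bases with BUD5. HO, for the endonuclease that starts mating-type switching, had 977 and 806 against 488 and 513 (-0.78 ± 0.16, adjusted p = 0.0286). Without dal80Δ replicate 1 only 2 of the 5 lower genes here passed, and without either dal80Δ library HMRA1 left the filter.

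Few genes shared by both mating types were called, but only 5.45% of all tested genes were called. At that share lists of 18 and 10 genes would hold few calls, so these counts do not set the genes apart. Of 18 genes of pheromone signalling none passed in limma, edgeR or DESeq2. An unadjusted p under 0.05 in limma was found for 3 of them, beside 1587 of all 5594 tested genes. The 18 genes had a median log2 of -0.22 beside -0.15 over all genes. They include the G protein genes GPA1 (-0.31 ± 0.13), STE4 (-0.16) and STE18 (-0.23), the scaffold gene STE5 (-0.09) and the transcription factor gene STE12 (-0.08). Of 18 pheromone-induced and cell fusion genes 1 passed, PRM4 (-1.04 ± 0.19, adjusted p = 0.0164), a call that ended without gat1Δ replicate 1 and without dal80Δ replicate 2, while FUS1, for cell fusion, lay at -0.46 (adjusted p = 0.0711). Of 10 genes for processing the pheromones, such as KEX2 and RAM1 (-0.25 ± 0.14), none passed in any of these tools and none had an unadjusted p under 0.05. Of 18 meiosis and sporulation genes tested, from a list of 22, 1 was lower and none was higher (median -0.12). The lower gene was SPO14, described below with the neighbours of DAL80. The groups did not overlap with dal80Δ lower for 7 of the 18, beside 46.4% of all tested genes. SPS100, of the spore wall, passed as higher with TMM factors (0.61, adjusted p = 0.0211) and in edgeR (0.99, adjusted p = 0.031). Markers of sporulating diploids in this list were SPO11, SPO13, SPS1, SPS4, DMC1, HOP1 and NDT80. None passed in limma, and list genes outside the test could not. NDT80 lay between 30.1 and 38.5 scaled reads and SPS1 between 17.7 and 20.2 in the 4 libraries. Values of the other markers are not given here.

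**Figure D2:**
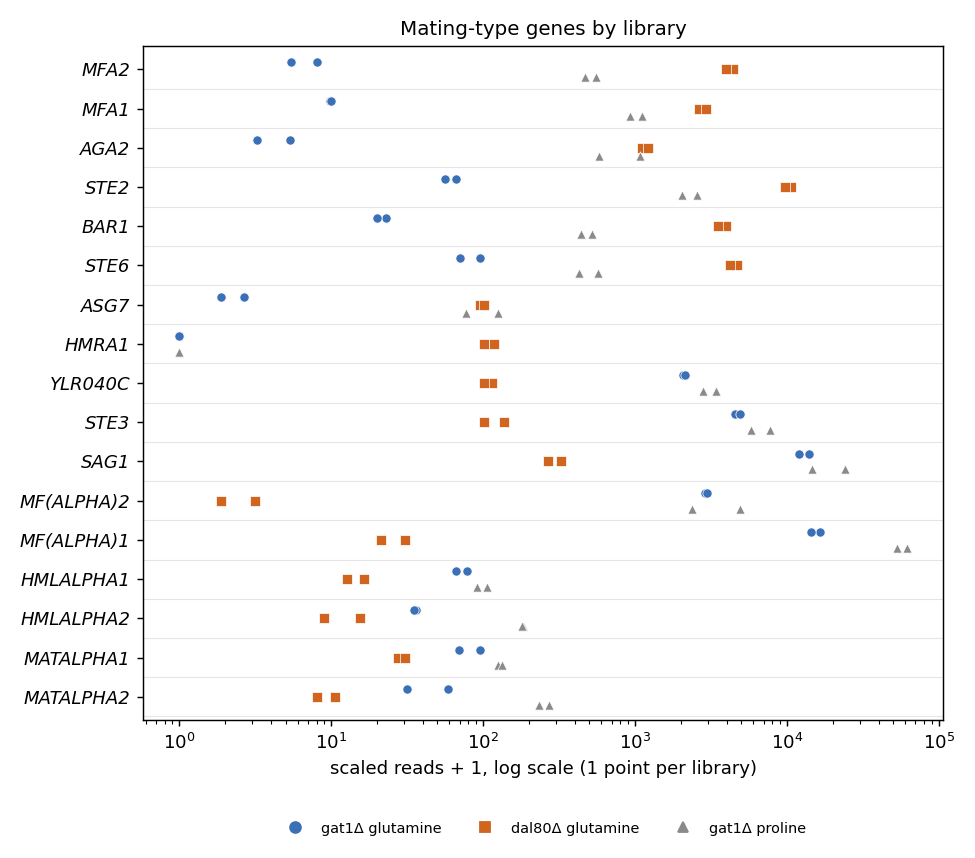
Scaled reads plus 1 on a log axis, 1 point per library, of the a-specific genes and HMRA1 and of the α-specific genes and the α cassettes, by group. In the a-specific rows the dal80Δ points lie to the right of the gat1Δ glutamine points, as in MFA2 (4407 and 3952 against 7 and 4.45); in the α-specific rows they lie to the left.

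Outside the mating lists, most of the listed genes for taking up poor nitrogen sources were higher in dal80Δ. Of 18 permease genes under nitrogen catabolite repression 11 were higher, none lower and 7 were not called, with a median log2 of 0.99. Of all tested genes 3.97% were called higher. The libraries of the groups did not overlap, with dal80Δ higher, for 16 of the 18 (17.4% of all genes tested). GAP1 (YKR039W, chromosome 11, 515063 to 516871), the general amino acid permease, had 1188 and 1226 scaled reads in gat1Δ and 9805 and 7858 in dal80Δ (2.82 ± 0.19, adjusted p = 4.16e-05). MEP2 (YNL142W, chromosome 14, 357453 to 358952), the high-affinity ammonium permease, had 347 and 394 against 3064 and 2019 (2.64 ± 0.22, adjusted p = 0.000146). Both dal80Δ libraries exceeded both gat1Δ libraries in each gene. These levels in dal80Δ glutamine cells were far under those of the gat1Δ proline libraries, where GAP1 had 68200 and 99485 scaled reads and MEP2 78555 and 107450.

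The promoters of these 2 permease genes are shown because GATAAG, the core letters bound by GATA factors, lie in both. GAP1 was read at chr11:514763-515062 and MEP2 at chr14:357153-357452, both on the plus strand of R64, and capitals mark GATAAG or its reverse complement CTTATC.
GAP1: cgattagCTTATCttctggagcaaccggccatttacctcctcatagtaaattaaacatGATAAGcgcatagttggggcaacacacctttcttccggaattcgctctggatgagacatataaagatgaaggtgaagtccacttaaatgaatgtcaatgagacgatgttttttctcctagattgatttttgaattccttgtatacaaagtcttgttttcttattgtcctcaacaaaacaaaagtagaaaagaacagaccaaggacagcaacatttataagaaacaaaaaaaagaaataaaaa
MEP2: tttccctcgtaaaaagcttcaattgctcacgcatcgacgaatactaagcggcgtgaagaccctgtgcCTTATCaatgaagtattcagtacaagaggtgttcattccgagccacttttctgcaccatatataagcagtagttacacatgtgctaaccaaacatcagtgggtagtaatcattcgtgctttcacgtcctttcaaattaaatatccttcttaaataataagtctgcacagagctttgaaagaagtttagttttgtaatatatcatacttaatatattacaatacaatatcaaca
GAP1 held 2 matches, 293 and 242 bases before the start codon, and MEP2 held 1, at 233 bases. Such letters were found on either strand in 5 of the 11 called permease genes (GAP1, MEP2, MEP3, AGP1 and CAN1), in 4 of the 7 not called and in 14.8% of the 5571 tested promoters.

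Other amino acid and peptide permeases formed most of the rest. AGP1 (chromosome 3, 76018 to 77919), a broad amino acid permease, had 5414 and 6280 scaled reads in gat1Δ and 19172 and 15741 in dal80Δ (1.57 ± 0.21, adjusted p = 0.00362). PUT4, the proline permease, had 24.5 and 47.3 against 186 and 156 (1.45 ± 0.17). PTR2, the di- and tripeptide transporter, had 784 and 1170 against 2875 and 2361 (1.40 ± 0.24, adjusted p = 0.0111). AGP1 and PTR2 differed from the others in proline, where gat1Δ cells had only 956 and 593 scaled reads of AGP1 and 164 and 269 of PTR2, fewer than in glutamine. DUR3, for urea and polyamine uptake, had 188 and 230 against 662 and 596 (1.39 ± 0.16). The arginine permease gene CAN1 (1.03 ± 0.16), the ammonium permease genes MEP1 (1.00 ± 0.15) and MEP3 (0.99 ± 0.14), OPT2 (1.29 ± 0.26), of the oligopeptide transporter family, and AGP3 (0.65 ± 0.13) were higher as well. The call of OPT2 ended without either gat1Δ replicate or without dal80Δ replicate 2.

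The 7 permease genes that were not called lay between 0.22 and 0.53. DAL5, for allantoate uptake and a widely used reporter of nitrogen catabolite repression, had 88.4 and 90.1 scaled reads in gat1Δ and 113 and 108 in dal80Δ (0.22 ± 0.13, adjusted p = 0.294). DAL4, for allantoin, had 52.5 and 49.5 against 62.0 and 70.6, and UGA4, for γ-aminobutyrate (GABA), 58.7 and 66.8 against 109 and 106 (0.53 ± 0.17, adjusted p = 0.106). Their groups did not overlap either, by smaller amounts. UGA4 passed as higher in edgeR (0.92, adjusted p = 0.032) and in DESeq2 (0.92, adjusted p = 0.00611). BIO5, for uptake of a biotin precursor, had 1106 and 1241 in gat1Δ but 566 and 3789 in dal80Δ, so the gat1Δ pair lay between the dal80Δ libraries. BIO5 passed as higher without dal80Δ replicate 1 (1.66, adjusted p = 0.000889) and as lower without replicate 2 (adjusted p = 0.0247). The count of 11 higher became 7, BIO5 among them, without dal80Δ replicate 1, where the calls of AGP3, CAN1, MEP1, MEP3 and PTR2 ended.

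**Figure D3:**
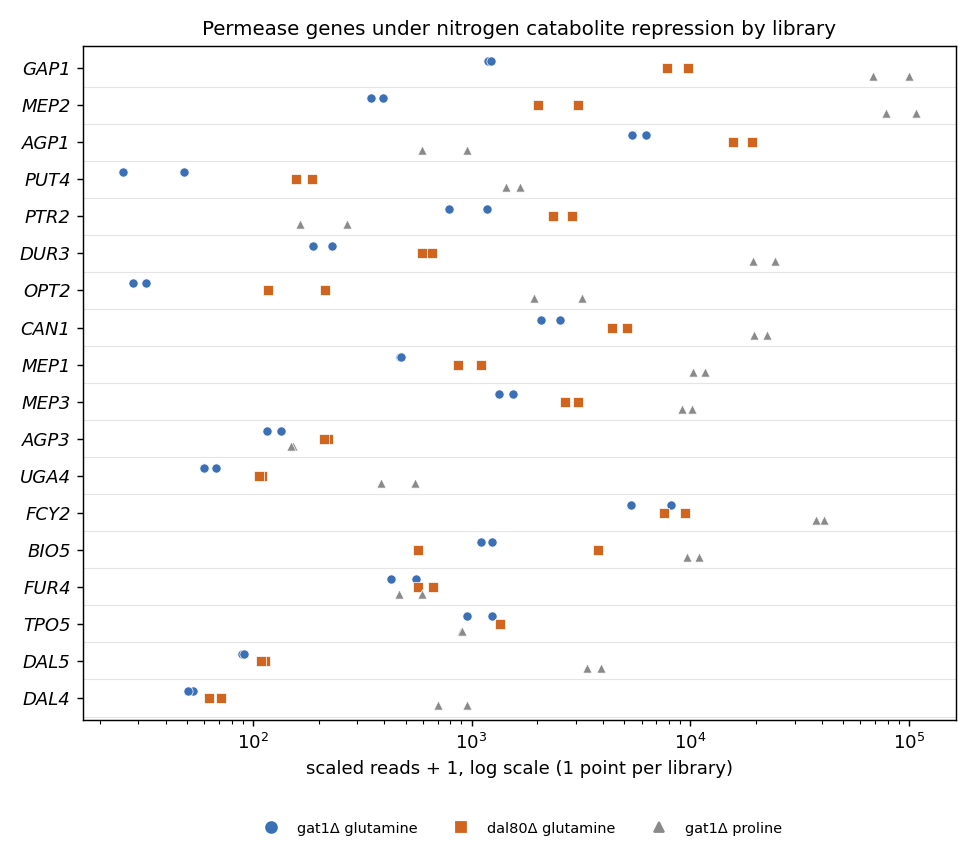
Scaled reads plus 1 on a log axis, 1 point per library, of the 18 permease genes under nitrogen catabolite repression. The dal80Δ glutamine points lie to the right of the gat1Δ glutamine points in 16 rows, GAP1 and MEP2 farthest, while the BIO5 points of dal80Δ lie apart at 566 and 3789.

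Some genes of enzymes for using these nitrogen sources were also called, beside 3.97% of all tested genes called higher. Of 8 allantoin and urea genes 2 were higher and none lower (median 0.41). DUR1,2, for urea amidolyase, had 1398 and 936 scaled reads in gat1Δ and 4856 and 3280 in dal80Δ (1.69 ± 0.24, adjusted p = 0.00457). DAL3, for ureidoglycolate lyase, had 42.9 and 35.6 against 174 and 144 (1.71 ± 0.15, adjusted p = 0.000214). Both pairs were apart, while the allantoinase gene DAL1 (0.43 ± 0.25) and the allantoicase gene DAL2 (0.39 ± 0.15) were not called. DAL1 passed as higher in DESeq2 (1.30, adjusted p = 0.0427). Of 14 genes for breaking down proline, arginine and asparagine 1 was higher, CAR2, for ornithine transaminase (0.73 ± 0.14, adjusted p = 0.0173), a call that ended without any one of the 4 glutamine libraries. PUT1, the proline oxidase, had 53.4 and 62.3 against 125 and 106 (0.71 ± 0.23, adjusted p = 0.105). It passed as higher in edgeR (1.14, adjusted p = 0.0435), in DESeq2 (1.13, adjusted p = 0.000617) and in limma with the 4 glutamine libraries alone (adjusted p = 0.0288). Of 9 genes around GABA, glutamate and glutamine 2 were higher. GAD1, for glutamate decarboxylase, had 1115 and 1047 against 2820 and 3283 (1.46 ± 0.13), and UGA2, for succinate semialdehyde dehydrogenase, lay at 0.58 (adjusted p = 0.0474), a call also lost without any one of those libraries. Glutamine synthetase (GLN1, 0.07 ± 0.14) and the glutamate dehydrogenase genes GDH1 (-0.18 ± 0.18) and GDH2 (-0.02 ± 0.13) were not called.

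Apart from the deleted pair, the list of GATA factors and other regulators of nitrogen use had 12 genes, and none passed in limma (median 0.01). An unadjusted p under 0.05 was found for 2 of them, beside 1587 of all 5594 tested genes. GLN3, for the other GATA activator, had 469 and 383 scaled reads in gat1Δ and 305 and 304 in dal80Δ (-0.42 ± 0.22, adjusted p = 0.229). GZF3, for the other GATA repressor, had 216 and 198 against 254 and 269 (0.29 ± 0.13, adjusted p = 0.183). URE2, for the prion-forming protein that keeps Gln3 out of the nucleus, had 425 and 326 against 243 and 281 (-0.47 ± 0.21, adjusted p = 0.175). The groups did not overlap for these 3, yet the differences were small against the fitted spread. NPR1, for a kinase that stabilises Gap1, had 518 and 485 against 839 and 815 (0.67 ± 0.19, adjusted p = 0.0724). With edgeR 2 of the 12 passed, NPR1 (0.88, adjusted p = 0.0107) and GZF3 (0.50, adjusted p = 0.0371), and NPR1 also passed with TMM factors (0.82, adjusted p = 0.0198).

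The vacuole's proteases recycle nitrogen from protein. Of 12 genes for such proteases, their inhibitors and peptide breakdown, 7 were higher in dal80Δ and none lower (median 0.66). Of all tested genes 3.97% were called higher. PEP4, for proteinase A, had 11686 and 10937 scaled reads in gat1Δ and 20567 and 21760 in dal80Δ (0.90 ± 0.15, adjusted p = 0.0107). PRB1, for proteinase B, had 3634 and 3555 against 6916 and 6156 (0.85 ± 0.13). In both genes the dal80Δ pair was higher by less than 2-fold, with no overlap. ECM38, for γ-glutamyltranspeptidase (0.96 ± 0.13), PAI3, for the inhibitor of proteinase A (0.94 ± 0.17), and APE3, for an aminopeptidase (0.66 ± 0.14), were higher too. PAI3 also belongs to the stress list below. With so small differences the count was 1 and 2 without dal80Δ replicates 1 and 2, and 4 and 2 without gat1Δ replicates 1 and 2.

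The SPS sensor responds to amino acids outside the cell, and of 10 permease genes under it 3 were higher, DIP5, for glutamate and aspartate uptake, with AGP1 and PTR2. DIP5 had 31.5 and 57.9 scaled reads in gat1Δ and 155 and 170 in dal80Δ (1.26 ± 0.18, adjusted p = 0.00457). The 1 lower gene was TAT1, a permease for valine, leucine, isoleucine and tyrosine, with 1939 and 2607 against 1377 and 1276 (-0.74 ± 0.16, adjusted p = 0.0318), a call that ended with TMM factors (-0.59, adjusted p = 0.0856), in edgeR (-0.63, adjusted p = 0.06), and without dal80Δ replicate 1, dal80Δ replicate 2 or gat1Δ replicate 2 (adjusted p = 0.143, 0.185 and 0.0876). BAP2, for branched-chain amino acids, lay at -0.31 ± 0.28.

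Among the lists outside mating, general stress genes held the most higher members. Of 37 genes known as targets of the stress activators Msn2 and Msn4, 24 were higher in dal80Δ, beside 3.97% of all tested genes. None was lower and 13 were not called, with a median log2 of 1.21. The groups did not overlap, with dal80Δ higher, for 32 of the 37, beside 17.4% of all tested genes. DDR2 (chromosome 15, 231570 to 231755, minus strand), a small stress-induced protein, had 463 and 274 scaled reads in gat1Δ and 3204 and 3578 in dal80Δ (3.23 ± 0.30, adjusted p = 0.000298). ALD3, for an aldehyde dehydrogenase, had 121 and 114 against 902 and 998 (2.69 ± 0.13), though its near-identical copy ALD2 makes the split of reads uncertain. CTT1, the cytosolic catalase, had 545 and 318 against 2024 and 2381 (2.29 ± 0.22). In all 3 genes the dal80Δ libraries were several times higher than either gat1Δ library. HSP26, a small heat-shock protein, had 929 and 533 against 1939 and 3304 (1.82 ± 0.30), and HSP12, a membrane-protecting stress protein, 3895 and 3164 against 6674 and 10228 (1.23 ± 0.23). RTN2 (2.61), PHM7 (2.57), HSP30 (2.48), SPI1 (2.41) and MSC1 (1.82) were higher as well. gat1Δ replicate 1 lay above replicate 2 in DDR2, CTT1 and HSP26, and the count ranged from 18 to 29 when any one library was left out.

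The DDR2 promoter is shown because it carries the stress response element AGGGG, the letters known to be bound by Msn2 and Msn4, 3 times. It was read at chr15:231756-232055 on the minus strand of R64, and capitals mark AGGGG or its reverse complement CCCCT.
DDR2: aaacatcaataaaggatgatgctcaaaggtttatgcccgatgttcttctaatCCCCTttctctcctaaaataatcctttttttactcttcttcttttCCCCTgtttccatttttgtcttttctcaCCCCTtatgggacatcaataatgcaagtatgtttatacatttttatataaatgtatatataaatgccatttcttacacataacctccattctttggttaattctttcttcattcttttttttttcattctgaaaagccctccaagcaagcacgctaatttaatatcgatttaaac
The matches lie 248, 203 and 175 bases before the start codon. These letters were found on either strand in 18 of the 24 called members, in 8 of the 13 not called and in 22.6% of tested promoters. YGP1, the other member of largest change after DDR2 by the rule for printing promoters, had no match.

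YGP1, a cell wall-related glycoprotein that is secreted, had 4698 and 2235 scaled reads in gat1Δ and 24491 and 22407 in dal80Δ (2.84 ± 0.29, adjusted p = 0.000509). Among 23 cell wall genes it was 1 of 4 that were higher, with SPI1, PIR3 (192.6 and 148.0 against 454.6 and 599.2, 1.51 ± 0.18) and SED1 (1.24 ± 0.16), the major wall protein of stationary cells. TIR1, a mannoprotein of anaerobic cells, was the 1 lower gene, with 76.2 and 62.9 against 20.8 and 14.3 (-1.31 ± 0.20, adjusted p = 0.0061). YGP1 and SPI1 belong to both the stress and the cell wall list, so these lists are not independent.

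Some genes for storage carbohydrates were higher as well. Of 18 trehalose and glycogen genes 9 were higher and none lower (median 0.66), beside 3.97% of all tested genes called higher. GPH1, for glycogen phosphorylase, had 1894 and 1814 scaled reads in gat1Δ and 7684 and 7870 in dal80Δ (2.03 ± 0.13, adjusted p = 2.6e-05). GDB1, the glycogen debranching enzyme, had 1139 and 1170 against 4506 and 4418 (1.86 ± 0.12). The replicates of both genes differed little. TSL1, the large subunit of trehalose synthase, had 4370 and 2710 against 9399 and 9410 (1.43 ± 0.20), and PGM2, phosphoglucomutase, lay at 1.39 ± 0.18. Enzymes that make glycogen (GSY2, 0.98 ± 0.17; GLC3, 0.71 ± 0.15) and trehalose (TPS1, 0.71 ± 0.16) and enzymes that break them down (NTH1, 0.61 ± 0.14; ATH1, 0.77 ± 0.13) were both among the 9. The count was 4 without dal80Δ replicate 1, 5 without replicate 2 and 4 without gat1Δ replicate 2.

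Of the sugar enzymes, several minor isoenzyme genes were called. TKL2, the minor transketolase, had 28.9 and 18.9 scaled reads in gat1Δ and 625 and 778 in dal80Δ (3.40 ± 0.16, adjusted p = 2.83e-06), whereas the major gene TKL1 had 29035 and 31341 against 31090 and 31522 (0.05 ± 0.15). GND2, the minor 6-phosphogluconate dehydrogenase, had 112 and 69.5 against 610 and 781 (2.56 ± 0.23), whereas GND1 lay at -0.04 ± 0.19. NQM1, the minor transaldolase, had 47.3 and 32.8 against 205 and 311 (2.14 ± 0.20), whereas TAL1 lay at -0.22 ± 0.14. In each of these pairs the minor gene was called and the major gene was not, and the difference between the genes of a pair was not tested. The hexokinase gene HXK1 (1.31 ± 0.24) and the glucokinase gene GLK1 (1.30 ± 0.19, sharing 106 bases with YCL042W) were higher, and HXK2 lay at -0.44 (adjusted p = 0.105). Together 5 of 15 genes of this list were higher and none lower (median 0.11), beside 3.97% of all tested genes called higher. Of 17 glycolysis genes 1 was higher, TDH1, with 10292 and 7726 against 20329 and 30494 (1.48 ± 0.21), and its near-identical copies TDH2 (-0.32) and TDH3 (0.10) were not called. The split of reads among the TDH copies is uncertain.

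Of 12 hexose transporter genes tested 4 were higher, beside 3.97% of all tested genes. The high-affinity transporter genes HXT7 (2.61 ± 0.17) and HXT6 (1.97 ± 0.16) are near-identical, so their split is uncertain; HXT7 had 396 and 550 scaled reads in gat1Δ and 2839 and 3291 in dal80Δ. HXT4 had 228 and 374 against 1538 and 1997 (2.43 ± 0.21), and HXT5, made in slow growth, 42.0 and 52.8 against 231 and 313 (1.82 ± 0.19). The low-affinity transporter genes HXT1 (0.31 ± 0.18) and HXT3 (0.31 ± 0.16), and HXT2 (-0.50 ± 0.32), were not called. The 4 calls held without each single library, and HXT2 passed as lower without gat1Δ glutamine replicate 1 (-1.04, adjusted p = 0.0472).

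Some nuclear genes of mitochondrial metabolism were higher, by less than 2-fold in most of the examples named. The share called higher over all tested genes was 3.97%. Of 17 genes of the tricarboxylic acid cycle 8 were higher and none lower (median 0.52). IDH1 (0.86 ± 0.12, adjusted p = 0.00455) and IDH2 (0.81 ± 0.12), the subunits of isocitrate dehydrogenase, ACO1, aconitase (0.85 ± 0.14), CIT1, citrate synthase (0.81 ± 0.13), and SDH4, a subunit of succinate dehydrogenase (0.90 ± 0.16), were among them. IDH1 had 567 and 561 scaled reads in gat1Δ and 1075 and 1009 in dal80Δ, so its groups were apart while lying within 2-fold. Of 34 genes of the respiratory chain and ATP synthase 6 were higher, such as RIP1, the Rieske protein (0.75 ± 0.13), and 14 in edgeR. Of 18 antioxidant genes 4 were higher, led by the peroxiredoxin gene TSA2 (1.10 ± 0.19). These calls moved with single libraries: without dal80Δ replicate 1 the 3 counts were 1, 0 and 1, without dal80Δ replicate 2 they were 3, 0 and 0, without gat1Δ replicate 1 they were 5, 3 and 2, and without gat1Δ replicate 2 they were 3, 1 and 0. Of 18 genes of gluconeogenesis and acetate use 2 were higher, ALD4, the mitochondrial aldehyde dehydrogenase (1.21 ± 0.17), and ACH1 (0.62 ± 0.13), while the glyoxylate genes ICL1 (0.10 ± 0.19) and MLS1 (0.02 ± 0.15) were not called.

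**Figure D4:**
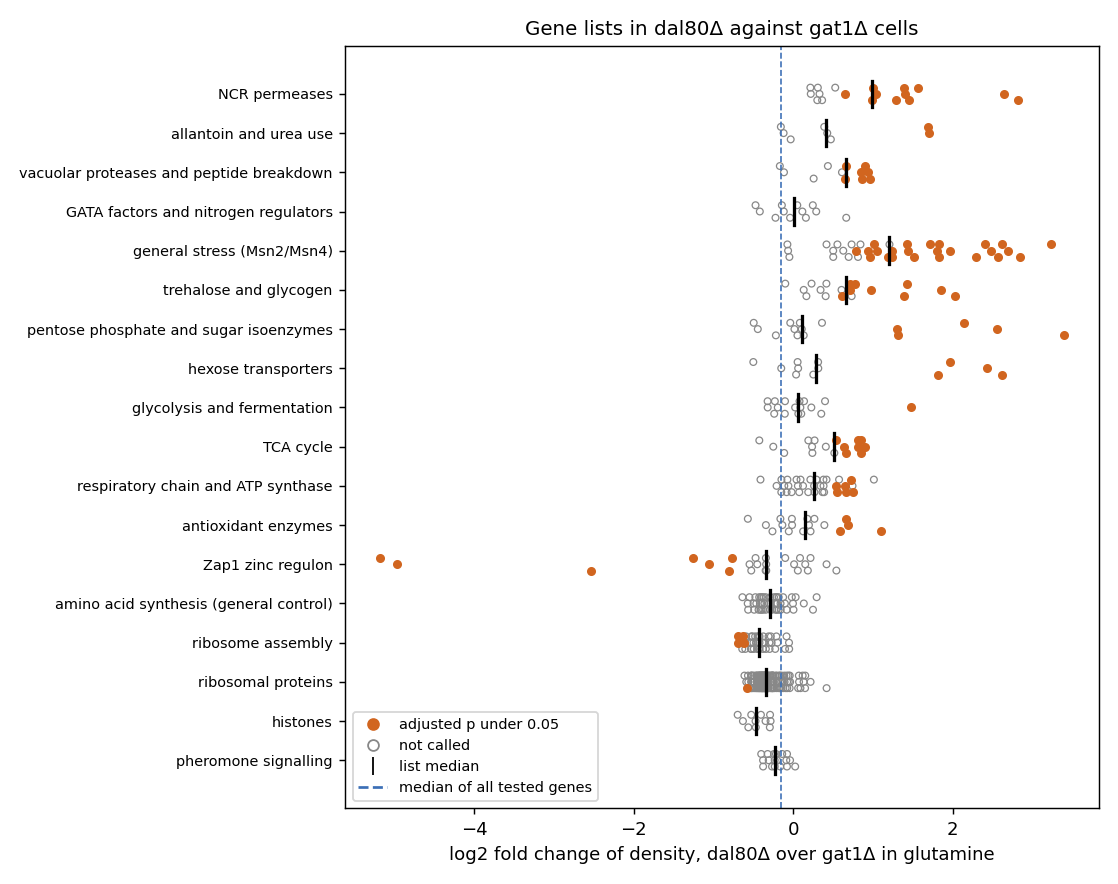
Log2 fold change of density, dal80Δ over gat1Δ in glutamine, of each member of 18 gene lists, with members past an adjusted p of 0.05 filled, the list's median as a bar and the median of all tested genes (-0.15) as a dashed line. Stress genes (median 1.21) and permease genes (0.99) lie mostly to the right, and histone genes (-0.47) and ribosome assembly genes (-0.43) to the left with few calls or none.

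Outside mating, genes of the zinc regulon held the largest differences in the other direction. The activator Zap1 is known to switch on zinc uptake genes when zinc is scarce. Of 24 members 7 were lower in dal80Δ, beside 1.48% of all tested genes called lower. None was higher and 17 were not called, with a median log2 of -0.34. For 14 of the 24 the groups did not overlap with dal80Δ lower, beside 46.4% of all genes. ZPS1 (chromosome 15, 34658 to 35407), for a cell surface protein, had 5029 and 2364 scaled reads in gat1Δ and 73.1 and 83.4 in dal80Δ (-5.18 ± 0.29, adjusted p = 9.96e-06). ZRT1 (chromosome 7, 20978 to 22108), the high-affinity zinc transporter, had 18345 and 20322 against 255 and 1322 (-4.97 ± 0.57, adjusted p = 0.00133). The dal80Δ libraries stood well apart in ZRT1, yet both lay far under the gat1Δ pair, and the log2 difference was -3.84 without dal80Δ replicate 1 and -6.10 without replicate 2. ZAP1 itself had 725 and 553 against 190 and 277 (-1.26 ± 0.21, adjusted p = 0.01), a call that ended without dal80Δ replicate 1 (-1.04, adjusted p = 0.0711).

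The ZRT1 promoter is shown because it holds the zinc-responsive element, ACCTT and AAGGT with 1 base between them, which Zap1 is known to bind. It was read at chr7:20678-20977 on the plus strand of R64, and capitals mark the element, 204 bases before the start codon.
ZRT1: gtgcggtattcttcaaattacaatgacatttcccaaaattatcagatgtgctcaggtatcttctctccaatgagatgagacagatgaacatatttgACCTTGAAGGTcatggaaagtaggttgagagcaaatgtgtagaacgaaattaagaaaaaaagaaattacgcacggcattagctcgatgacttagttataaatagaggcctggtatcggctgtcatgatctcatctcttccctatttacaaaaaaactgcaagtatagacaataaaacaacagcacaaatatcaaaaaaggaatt
These letters read alike on both strands apart from the middle base and were found in 1 of the 7 called members, in 2 of the 17 not called and in 6 of 5571 tested promoters (0.108%). ZPS1 had no match in its 300 bases.

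The other lower members were VEL1, ADH4, RAD27 and NRG2. VEL1, a gene induced on zinc depletion, had 278 and 84.0 scaled reads in gat1Δ and 16.4 and 13.8 in dal80Δ (-2.53 ± 0.40, adjusted p = 0.00777), and the difference was -1.75 without gat1Δ replicate 1 and -3.32 without replicate 2. ADH4, the zinc-regulated alcohol dehydrogenase, had 1669 and 883 against 543 and 599 (-1.06 ± 0.25, adjusted p = 0.0433). The gat1Δ replicates stood apart by a wide margin in both genes, replicate 1 the higher. RAD27 (-0.81 ± 0.14, adjusted p = 0.0132), a nuclease gene of DNA replication, and NRG2 (-0.76 ± 0.18, adjusted p = 0.0474), a repressor gene, were lower as well. VEL1, MNT2, ADH4 and ZRT1 are members of this list on the same end of chromosome 7, between positions 11110 and 22108, and MNT2, for a mannosyltransferase, was not called (-0.34 ± 0.13). ZRT2, the low-affinity zinc transporter (-0.34 ± 0.24), ZRT3, which releases zinc from the vacuole (-0.45 ± 0.13, adjusted p = 0.0778), FET4 (-0.53 ± 0.16) and ZRC1, which stores zinc in the vacuole (0.18 ± 0.15), were not called. ZRG8, a gene of zinc regulation, lay at 0.54 (adjusted p = 0.0902) and passed as higher with TMM factors (0.69, adjusted p = 0.0211) and in edgeR (0.81, adjusted p = 0.00951). ADH4 and NRG2 were called narrowly: their calls ended without the proline libraries (adjusted p = 0.0516 and 0.0519) and, like that of RAD27, without gat1Δ replicate 1 or either dal80Δ replicate. The count of 7 became 3 without dal80Δ replicate 1 and 4 without dal80Δ replicate 2 or gat1Δ replicate 1.

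**Figure D5:**
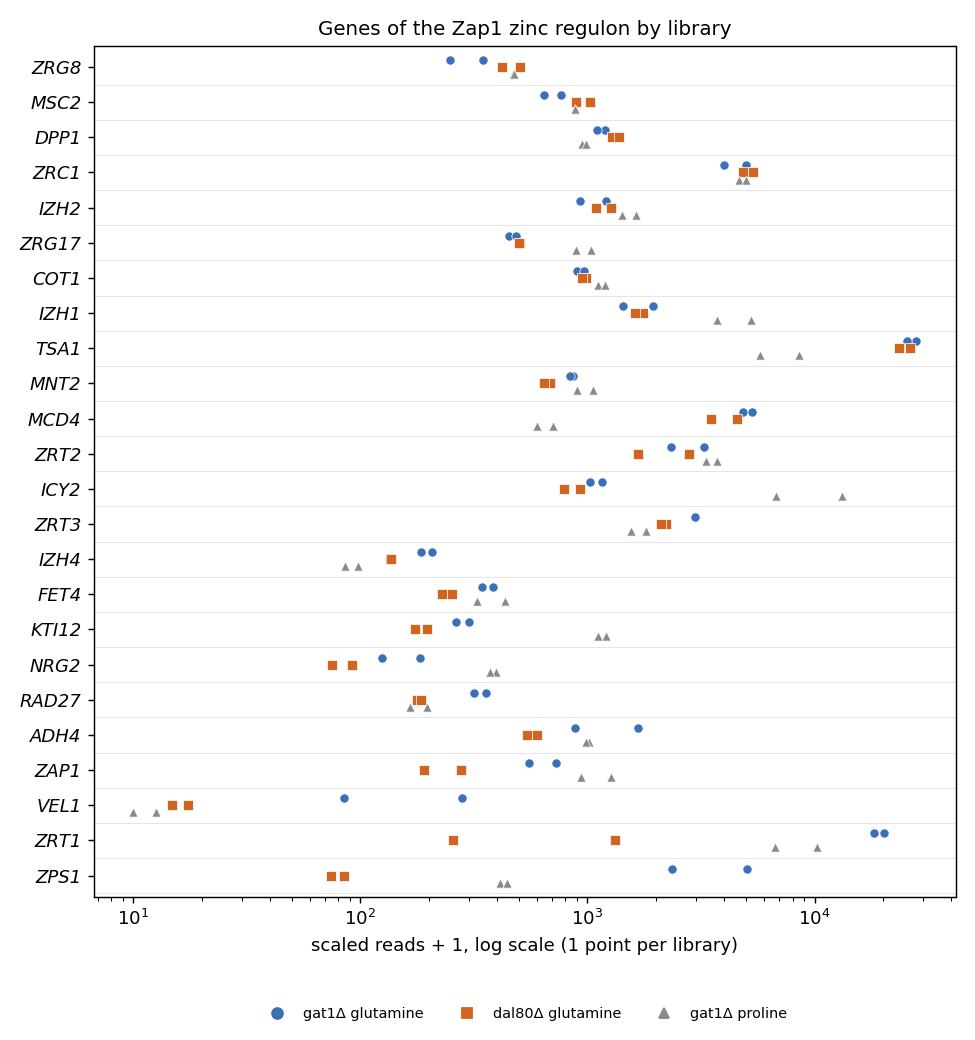
Scaled reads plus 1 on a log axis, 1 point per library, of the 24 zinc regulon genes. ZPS1 and ZRT1 show gaps between the gat1Δ (5029 and 2364; 18345 and 20322) and dal80Δ points (73.1 and 83.4; 255 and 1322), while the points of ZRT2 and ZRC1 lie close together.

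Among the 15 genes with the largest differences in each direction outside mating, some belong to no list. Of those that were higher, GAT1, the gene deleted in the other strain, is given above. YCL048W-A (chromosome 3, 41488 to 41727), a protein of unknown function, had 11.4 and 11.1 scaled reads in gat1Δ and 462 and 705 in dal80Δ (5.10 ± 0.29, adjusted p = 1.05e-05). YER053C-A (3.06), YNL194C (2.76), an integral membrane protein, and FMP16 (2.57) were the others. Of the 15 that were lower, SPO14, for phospholipase D, belongs to the meiosis and sporulation list. It lies 502 bases from DAL80 (chromosome 11, 501344 to 506395, minus strand) and had 1032 and 981 against 397 and 292 (-1.30 ± 0.16, adjusted p = 0.00191). Both dal80Δ libraries were well under either gat1Δ library. The remaining 11 genes among the 3 on each side of GAT1 and DAL80 were not called, for example DID2 on the other side of DAL80 (-0.39, adjusted p = 0.121) and FRS2 beside GAT1 (-0.42, adjusted p = 0.0811). Of the genes in no list, SNZ1, for vitamin B6 synthesis, had 690 and 891 against 258 and 414 (-1.21 ± 0.27), a call that ended with TMM factors (adjusted p = 0.0541) and without either gat1Δ replicate or dal80Δ replicate 1. YHB1, the nitric oxide-detoxifying flavohemoglobin, had 2747 and 2247 against 1021 and 1133 (-1.19 ± 0.14, adjusted p = 0.00188). IMD2, for IMP dehydrogenase, which has near-identical copies (-1.16 ± 0.19), ECM21, a regulator of permease endocytosis (-1.08 ± 0.18), ATF2, for alcohol acetyltransferase (-1.07 ± 0.15), and YGR035C (-1.20 ± 0.28) followed. The call of YGR035C ended without gat1Δ replicate 1 or either dal80Δ replicate, that of IMD2 without replicate 2 of either strain and that of ECM21 without dal80Δ replicate 2.

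Few growth genes passed the adjusted threshold, while most had groups that did not overlap, with dal80Δ lower. Of 138 ribosomal protein genes 1 was lower, RPS26B (-0.58, adjusted p = 0.0491), a call lost with TMM factors, in edgeR, in DESeq2 and without any one of the glutamine libraries, and their median was -0.34 beside -0.15 over all genes. Of 42 ribosome assembly genes 4 were lower, BRX1, CIC1, UTP8 and NOP13, between -0.69 and -0.61 (median -0.43), of which UTP8 and NOP13 were lost with TMM factors and all 4 were lost without any one of the glutamine libraries. None of 11 histone genes passed in limma, edgeR or DESeq2 (median -0.47), and 7 had an unadjusted p under 0.05. None of 49 amino acid synthesis genes under general control passed in these tools (median -0.29), and 20 had an unadjusted p under 0.05. Among the ribosome assembly genes 30 had such a p, all lower, and among the ribosomal protein genes 61, of which 60 were lower. Such a p was found in limma for 1587 of all 5594 tested genes. The groups did not overlap, with dal80Δ lower, for 101 of the 138 ribosomal protein genes and 35 of the 42 ribosome assembly genes. The same held for all 11 histone genes and 38 of the 49 amino acid synthesis genes. Of all tested genes 46.4% did so, and 1.48% were called lower. In limma 6 of the 49 were lower with the 4 glutamine libraries alone and 5 without either proline library. Among nutrient transporters, SUL1, for sulfate, had 2360 and 2810 scaled reads in gat1Δ and 1103 and 1243 in dal80Δ (-1.10 ± 0.20, adjusted p = 0.0173), the 1 call of 24 sulfate and methionine genes. FET3, the iron uptake oxidase, had 4245 and 5305 against 2582 and 2110 (-1.01 ± 0.16, adjusted p = 0.00717), the 1 call of 22 iron genes. The calls of SUL1 and FET3 each ended without 1 or 2 single libraries: SUL1 without dal80Δ replicate 1 and gat1Δ replicate 2, FET3 without dal80Δ replicate 2.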

How the data were processed

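Strand-specific libraries were made from rRNA-depleted total RNA of yeast cultures, per the labels' protocols, and the submitters' processing notes name TopHat and build R64. For the counting program and for reads with several matches, nothing is given in the sources used here. Each row of the deposited table gives a read count per feature and library, which the authors left whole in gat1Δ proline replicate 1 and multiplied by 1 factor in each other library. It also gives a normalized density signal, which equalled the scaled read count deposited beside it divided by the feature length (largest difference 1.16e-11). Whole reads were recovered for 100% of positive values within 0.01 reads. A further 6 value columns were not used. Samples were grouped by their titles.

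A constant of 0.0229, set at percentile 5 of the gene densities above 0, was added as pseudocount, and the sums were tested on the log2 scale with limma 3.58.1 in R 4.3.3, over all 6 libraries with the group as the only factor and a trend in the prior variance. Pseudocounts lower the fold of scarce transcripts. P-values were adjusted by Benjamini-Hochberg over all tested genes. Whole counts would have been tested with edgeR; edgeR 4.0.16 and DESeq2 1.42.0 on the recovered reads, TMM and RLE scaling, other filters, pseudocounts and thresholds, replicate blocks and each library left out were alternatives. On simulated data (5532 genes) limma called 28.4% of the genes given a 1.5-fold change, and 98.5% of those given a 2-fold or a 4-fold change. Of its 157 calls, 7 were genes left unchanged. Whether these shares apply to the deposited data was not tested. There, some genes beyond 2-fold were not called in limma. The largest log2 value not called was 1.79 for PHO84, 1.21 among the stress genes and 1.01 among the respiratory chain genes. Replicates of a group differed beyond sampling noise, so none was counted as a repeat of another. The chi-square per degree of freedom was 40.7 in gat1Δ glutamine, 49.3 in dal80Δ glutamine and 69.5 in gat1Δ proline.

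The gene lists, the members and the rule for named genes were chosen with earlier results of these data known. The rule took the GATA factor genes and 3 neighbours on each side of GAT1 and DAL80, the a- and α-specific lists, the 15 largest differences each way outside the mating lists (called, at least 5 CPM in the higher group, no overlap), up to 5 called members per list, and the zinc and regulator lists. Other members named were picked after their values were seen. MATA1 was not found under that name. Promoters are the 300 bases before the annotated start in the R64 genome, where 5744 of 5772 nuclear genes began with ATG.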

Additional observations from a re-analysis of the deposited data

Results flagged for a closer look

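The gat1Δ proline libraries, which the comparison in glutamine does not use beyond its estimate of spread, held transcripts of a-specific genes. Their summed scaled reads over the 7 a-specific genes came to 6517 and 4922, against 193 and 171 in the gat1Δ glutamine libraries and 27470 and 25720 in dal80Δ. The α-specific genes summed to 87064 and 93000 scaled reads in the same proline libraries, against 38130 and 38380 in gat1Δ glutamine and 560 and 534 in dal80Δ. HMRA1 was listed at 0 in both proline libraries. Both sets of mating-type genes were thus read in gat1Δ cells in proline, and the cause was not tested.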

How the results depend on the processing

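No called gene that was tested under an alternative changed sign, and the 7 a-specific and 5 α-specific calls held under every alternative run. DESeq2 called 520 genes (438 higher; 501 without mating genes) and edgeR gave 386 higher (434 without mating genes). TMM gave 346 higher and 50 lower, and RLE 348 higher. A pseudocount 10 times larger left 51 lower genes and 4 lower zinc genes. An adjusted p of 0.01 left 115 genes (97 higher, 18 lower; 98 without mating genes) and 3 zinc genes. The 4 glutamine libraries alone, without the proline pair in the estimate of spread, gave 403 genes, 265 higher and 138 lower. Over all tested genes, same-numbered libraries did not deviate together (correlation -0.25 between the glutamine groups, 0.01 and -0.08 with proline). Single genes such as PDR5 and RSB1, given below, did so in both strains, and a correlation over all genes cannot exclude this. The replicate block gave 208 genes (41 lower, 189 without mating genes), and the crossed pairing, chosen after seeing the data, 409 (141 lower). With each library left out in turn the counts ranged from 111 (without dal80Δ replicate 1) to 405 (without gat1Δ proline replicate 2) in all, 93 to 264 higher, 18 to 141 lower, 96 to 386 without mating genes, 7 to 11 permease genes and 3 to 7 zinc genes; dal80Δ replicate 2 (119) and gat1Δ glutamine replicate 2 (178) also moved the total by over 1.5 times. Such fits assume that a lone library varies like the other groups. The cause of these changes was not tested. Of 109 named calls 43 and 35 were lost without dal80Δ replicates 1 and 2 (2 more were not tested in each), 24 and 29 without gat1Δ glutamine replicates 1 and 2, 22 under the block, 18 with the larger pseudocount, 8 without the filter, 7 with TMM, 5 with RLE, 4 in edgeR and 1 in DESeq2. With 2 libraries a group, differences under 2-fold were often not detectable, and some beyond 2-fold were not called.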

Other observations

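Vitamin genes separated the dal80Δ replicates. The biotin synthesis genes BIO3 and BIO4 had 1060 and 284 scaled reads in dal80Δ replicate 1 and 4673 and 1287 in replicate 2, and THI4, for thiamine synthesis, 106 and 663. BIO3 and BIO5 were the 2 genes that passed limma's adjusted threshold in opposite directions when different libraries were left out. BIO3 was higher in dal80Δ without its replicate 1 (1.15, adjusted p = 0.0087) and lower without its replicate 2 (-0.96, adjusted p = 0.025).

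The drug efflux pump gene PDR5 separated the replicates in both strains, with 132800 and 60490 scaled reads in gat1Δ and 136600 and 53510 in dal80Δ, replicates 1 and 2, and so did RSB1, a lipid translocator gene, with 356 and 85.1 and with 406 and 97.7. Such genes were few among tested genes with at least 5 CPM in the higher group. Of these, 0.315% in gat1Δ and 0.355% in dal80Δ differed over 2-fold between replicates. Genes with fewer reads were left out of these shares. The marker gene TRP1 had 7 to 11.2 scaled reads in the 4 glutamine libraries, and HIS3 at most 0.556. The phosphate transporter gene PHO84 had 170 and 262 in gat1Δ and 1316 and 517 in dal80Δ (log2 1.79 ± 0.50, adjusted p = 0.0731 in limma), with no overlap. PHO84 passed as higher in edgeR (2.22, adjusted p = 0.0237). In limma it passed with RLE factors (adjusted p = 0.0494) and with the 4 glutamine libraries alone (adjusted p = 0.0313). With TMM factors and in DESeq2 it did not pass. Called genes, mating genes included, lay on every nuclear chromosome, from 3.45% of tested genes on chromosome 8 to 9.21% on chromosome 3. Over all tested genes the share was 5.45%. Chromosome 3 carries the mating-type loci, and its share without mating genes was not worked out. In limma 0 of 19 mitochondrial genes were called, too few genes to set them apart from that overall share. Open reading frames not classed as verified were 17.3% of the 214 higher genes outside mating, 8.33% of the 72 lower and 13.1% of all tested.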
